A study of Mus musculus with 6 samples.

Results

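The miR-23, miR-27 and miR-24 families are made from paired genomic clusters, and their strands were compared between nephron progenitors and whole kidney of mouse embryos. Members were taken by name, as every mature strand whose name starts with the stem mmu-miR-23a, mmu-miR-23b, mmu-miR-27a, mmu-miR-27b or mmu-miR-24, which gave 10 of the 535 mature miRNAs, on 11 of the 792 rows (1 row pairs a mature miRNA with a precursor) and 6 of the 436 precursors in the table. Small RNA was sequenced from nephron progenitors (MNP, 3 libraries) and whole kidney (MWK, 3 libraries) of CD1 mice at embryonic day 15.5, each replicate being a pool from 1 litter, with no transgene or treatment named for either group. The progenitors were what remained after limited digestion and magnetic depletion of cells carrying CD140a (stroma), CD105 (endothelium), Epcam (epithelium) or Ter119 (erythroid cells), and kidneys left over from that digestion served as whole kidney. The labels name the miRNeasy Micro Kit and the methods a Mini Kit for whole kidney, and neither kit nor isolation can be separated from the group, so their effects cannot be told apart. The columns MNP6 and MWK6 carry a group but match no single sample name and have no replicate number here. Both groups came from 3 litters according to the methods, so libraries of the groups share litters. Which libraries share one is not stated, and the tests treat the 6 libraries as separate.

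MicroRNAs are cut from hairpin precursors, and either arm of a hairpin (5p or 3p) can be loaded into an Argonaute protein and guide it to messenger RNAs that pair with the seed of the miRNA. The miR-23a, miR-27a and miR-24-2 hairpins are transcribed together, as are the paralogous miR-23b, miR-27b and miR-24-1 hairpins, and the mature miR-24-3p is the same in both clusters. Members of these clusters are known for roles in endothelial cells and blood vessel growth, in blood cell differentiation and in fat cell differentiation.

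Counts on known miRNAs, with 1 value per mature miRNA, came to 393951, 436112 and 333850 in the progenitor libraries and to 349241, 360221 and 355848 in whole kidney, here and below always in the order MNP1, MNP2, MNP6 and MWK1, MWK2, MWK6. The members held 6025, 6528 and 3033 of these counts in the progenitor libraries and 7709, 8499 and 7176 in whole kidney, which is between 0.908% and 1.53% against between 2.02% and 2.36%. MNP6 thus had the smallest share of any library, and the groups did not overlap. Levels are given below as CPM, which brings each library to a common total after scaling by TMM, a method that makes libraries comparable through the bulk of their miRNAs. A count of 3, taken as the least a library can show, corresponds to between 6.54 and 9.45 CPM, a floor that covers counting error only because reads carry no molecular identifiers. Levels of different strands also depend on how well each ligates to the adapters, which was not tested.

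All 10 members passed the filter of more than 10 counts over the 6 libraries, as did 525 miRNAs in all. At an adjusted p of 0.05 or less in the quasi-likelihood test of edgeR, adjusted by Benjamini-Hochberg over the 525, 5 of the 10 members were lower in nephron progenitors and 1 was higher, beside 17.1% lower and 19.4% higher of all miRNAs tested. The groups did not overlap in CPM for 5 members on the lower side and 1 on the higher side, beside 23.2% and 23.4% of all miRNAs. The median log2 fold change, progenitors over whole kidney, was -0.77 over the members and -0.01 over all 525. In edgeR the lower members were miR-27b-3p, miR-27b-5p, miR-23b-3p, miR-23a-3p and miR-24-3p, and the higher one was miR-27a-5p. These 6 members became 3 without MWK1 and 7 without MNP1.

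**Figure D1:**
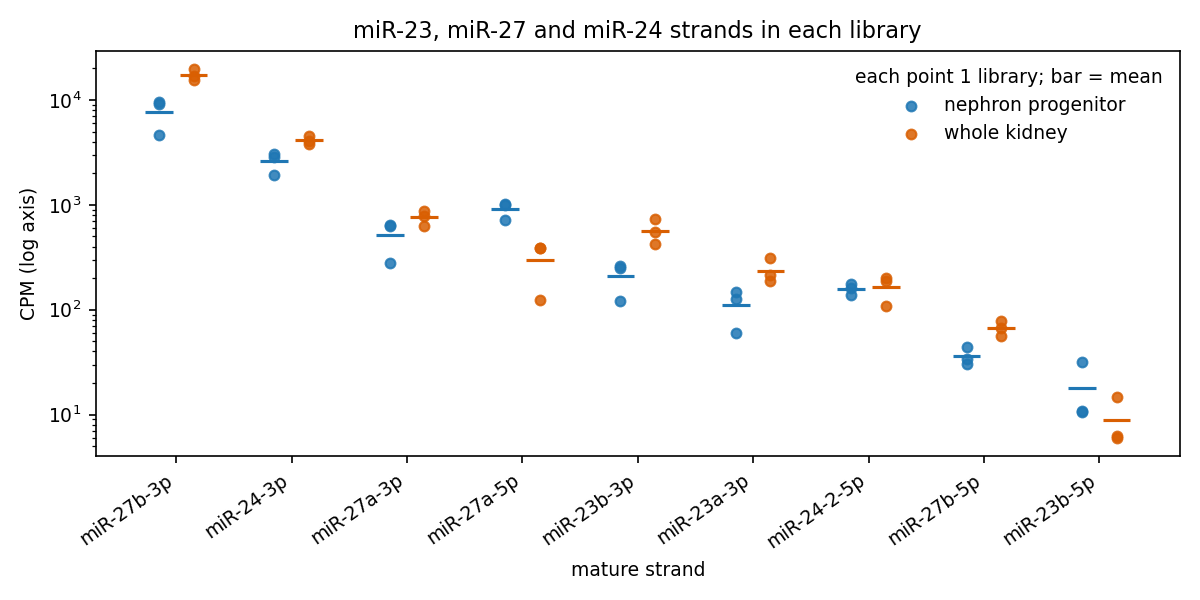
CPM on a log axis for 9 of the 10 member strands, in order of their level, with 1 point per library (3 nephron progenitor libraries in blue, 3 whole kidney libraries in orange) and a bar at each group mean; miR-24-1-5p, at 7 counts or fewer in each library, is not drawn. The points of miR-27a-5p lie higher in nephron progenitors (715 to 1027 CPM) than in whole kidney (123 to 390.5 CPM), while those of miR-27b-3p lie lower (4667 to 9481 against 15608 to 19636 CPM).

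In order of mean level, the strands in nephron progenitors ran miR-27b-3p, miR-24-3p, miR-27a-5p, miR-27a-3p, miR-23b-3p, miR-24-2-5p, miR-23a-3p, miR-27b-5p, miR-23b-5p and miR-24-1-5p. The ranges over libraries overlapped among miR-23b-3p, miR-24-2-5p and miR-23a-3p and between miR-27b-5p and miR-23b-5p. Within single libraries the order of these strands changed only in MNP6, where miR-24-2-5p was above miR-23b-3p. In whole kidney the order was miR-27b-3p, miR-24-3p, miR-27a-3p, miR-23b-3p, miR-27a-5p, miR-23a-3p, miR-24-2-5p, miR-27b-5p, miR-24-1-5p and miR-23b-5p. There the ranges overlapped between miR-27a-3p and miR-23b-3p, among miR-27a-5p, miR-23a-3p and miR-24-2-5p, and between the last 2 strands. Within libraries, miR-27a-5p was below miR-23a-3p in MWK6 and miR-24-1-5p below miR-23b-5p in the same library, and the other overlapping neighbours kept their order in all 3 libraries. The strand that moved most in this order was miR-27a-5p, which stood above miR-27a-3p and miR-23b-3p in progenitors and below both in whole kidney.

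The cluster on chromosome 13 gave the most abundant member. Its precursors lie on the plus strand of mm10, mir-23b at chr13:63300484-63300557, mir-27b at chr13:63300712-63300784 and mir-24-1 at chr13:63301208-63301275, within 792 bases. In the GENCODE annotation of that build all 3 lie in the protein-coding gene 2010111I01Rik on the same strand, mir-23b in an intron and mir-27b and mir-24-1 within exonic sequence of a transcript of the gene. They also lie inside Fancc, a DNA repair gene on the opposite strand, without touching an exon of it.

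The strand miR-27b-3p, the main product of its hairpin and number 18 of the 525 miRNAs by mean CPM, was at 9481, 9080 and 4667 CPM in the progenitor libraries and at 16867, 19636 and 15608 CPM in whole kidney. Every progenitor library lay below every whole kidney library, with MNP6 far below MNP1 and MNP2. The means were 7743 ± 2671 and 17370 ± 2061 CPM (SD, n = 3 libraries per group), which is a log2 fold change of -1.17 (SE 0.23, edgeR quasi-likelihood adjusted p = 0.0012), or 2.24-fold lower in progenitors. Without MNP6 the log2 fold change was -0.94 with an edgeR adjusted p of 0.00023. In RNA from bulk samples, fewer cells of a type and less of the miRNA per cell cannot be told apart.

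The other arm of the same hairpin, miR-27b-5p, was at 44.3, 30.5 and 34.2 CPM in the progenitor libraries and at 78.2, 56.7 and 67.1 CPM in whole kidney. It was scarce in both groups, and all progenitor libraries lay below all whole kidney libraries. Its log2 fold change was -0.89 (SE 0.30, edgeR adjusted p = 0.030). The edgeR call was lost without MNP2 (log2 fold change -0.79, adjusted p = 0.11), without MWK1 (-0.77, adjusted p = 0.12) and without MWK6 (-0.89, adjusted p = 0.065). It was also lost in the 4 numbered libraries alone (-0.89, edgeR adjusted p = 0.10, or 0.047 with a replicate block), with Benjamini-Hochberg adjustment throughout. In DESeq2 the call was lost too (-0.88, DESeq2 adjusted p = 0.15). With library totals in place of TMM its log2 fold change was -0.69 (edgeR adjusted p = 0.085), or -0.89 relative to the shift of 0.20 that this scaling gives the median of all miRNAs.

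The strand miR-23b-3p, from the first hairpin of the cluster, was at 259, 248 and 121 CPM in the progenitor libraries and at 553, 727 and 423 CPM in whole kidney. The groups did not overlap, and MNP6 was again the lowest library. The means of 209 ± 76.7 and 568 ± 153 CPM (SD, n = 3 libraries per group) gave a log2 fold change of -1.43 (SE 0.30, edgeR adjusted p = 0.0019), the largest fall among the members past the threshold, at 2.70-fold.

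The remaining strands of the cluster were near the floor. For miR-23b-5p the counts were 13, 5 and 4 in the progenitor libraries and 2, 2 and 5 in whole kidney, so that the groups overlapped (log2 fold change 0.94, SE 0.65, edgeR adjusted p = 0.31). Single libraries moved that value, to 0.24 without MNP1 (edgeR adjusted p = 0.85) and to 1.48 without MWK6 (edgeR adjusted p = 0.20). For miR-24-1-5p the counts were 2, 2 and 0 in progenitors and 5, 7 and 1 in whole kidney. With 3 counts or fewer in every progenitor library no fold is given for it, and its edgeR adjusted p was 0.13, or 0.048 without MWK6.

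The chromosome 8 cluster is shorter, at 404 bases, with mir-23a at chr8:84208518-84208592, mir-27a at chr8:84208672-84208758 and mir-24-2 at chr8:84208815-84208921, all on the plus strand of mm10. Annotated genes of miRNAs themselves, and genes starting outside a window around the cluster, were left out of the search. No other annotated gene covers mir-23a or mir-27a, and mir-24-2 shares its last 2 bases with the start of the lincRNA gene Gm26532.

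The strand miR-23a-3p was at 126, 148 and 60.4 CPM in the progenitor libraries and at 214, 309 and 187 CPM in whole kidney. The progenitor libraries were all lower, though the highest of them, MNP2, came near the lowest whole kidney library, MWK6. The means were 111 ± 45.5 and 236 ± 64.0 CPM (SD, n = 3 libraries per group), which is a log2 fold change of -1.07 (SE 0.32, edgeR adjusted p = 0.017). The call was lost in edgeR without MWK1 (log2 fold change -1.14, adjusted p = 0.056) and without MWK2 (-0.85, adjusted p = 0.11).

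From the mir-27a hairpin, the 3p arm was at 623, 636 and 279 CPM in the progenitor libraries and at 791, 875 and 633 CPM in whole kidney. The groups overlapped, since MNP2 lay slightly above MWK6. Its log2 fold change was -0.58 (SE 0.28, edgeR adjusted p = 0.14) and passed the threshold only without MNP1, at -0.73 with an edgeR adjusted p of 0.033. Without MNP6 it was -0.32 with an edgeR adjusted p of 0.23.

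The 5p arm of the same hairpin went the other way, at 1027, 999.9 and 715 CPM in the progenitor libraries and at 385, 390.5 and 123 CPM in whole kidney. All progenitor libraries lay above all whole kidney libraries, and MNP6 and MWK6 were the lowest of their groups. The means were 914 ± 173 and 299 ± 153 CPM (SD, n = 3 libraries per group), which is a log2 fold change of 1.61 (SE 0.34, edgeR adjusted p = 0.0022), or 3.06-fold higher in progenitors. Among the members it was the only one past the threshold in that direction. Without MWK6 its log2 fold change was smaller, at 1.24 with an edgeR adjusted p of 0.0037.

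The last strand of the cluster, miR-24-2-5p, was at 160.0, 176 and 139 CPM in the progenitor libraries and at 201, 189 and 108 CPM in whole kidney. The groups overlapped, with the lowest library of all being MWK6, and no difference passed the threshold (log2 fold change -0.06, SE 0.27, edgeR adjusted p = 0.89).

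Both clusters encode miR-24-3p, and its counts on the rows of mir-24-1 and mir-24-2 were the same in every library but MNP6, where they were 739 and 740, so its genomic source cannot be told apart. It was at 3078, 2886 and 1945 CPM in the progenitor libraries and at 4072, 4550 and 3780 CPM in whole kidney. The progenitor libraries were lower throughout and MNP6 was the lowest. The means were 2636 ± 607 and 4134 ± 389 CPM (SD, n = 3 libraries per group), which is a log2 fold change of -0.65 (SE 0.19, edgeR adjusted p = 0.016), or 1.57-fold lower. This smaller difference was not past the threshold without MWK1 (log2 fold change -0.66, adjusted p = 0.066) or without MWK2 (-0.58, adjusted p = 0.076) in edgeR. With library totals miR-24-3p had a log2 fold change of -0.45 (edgeR adjusted p = 0.054), or -0.65 relative to the shift of all miRNAs.

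On the strand opposite to both miR-24 hairpins lie the precursors of miR-3074-5p, which overlaps miR-24-3p by 20 bases at each locus and is the only other miRNA of the table within 10 kb of a member. It was at 7.39, 13.1 and 28.9 CPM in the progenitor libraries and at 30.1, 18.9 and 23.4 CPM in whole kidney. The groups overlapped and the difference did not pass the threshold (log2 fold change -0.57, SE 0.51, edgeR adjusted p = 0.45).

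Strands that only 1 cluster encodes were also summed, and the difference between the sums was not tested beyond the strand ratios that follow. The chromosome 13 strands came to 9821, 9374 and 4833 CPM in the progenitor libraries and to 17519, 20449 and 16115 CPM in whole kidney, and the chromosome 8 strands came to 1935, 1961 and 1193 CPM and to 1591, 1763 and 1051 CPM. The chromosome 13 sum was lower in every progenitor library, at 44.4% of its whole kidney mean (exact two-sided permutation test, p = 0.1), while the chromosome 8 sums overlapped (exact p = 0.5). With 3 libraries against 3 this test cannot go below 0.1. The chromosome 13 sum is nearly all miR-27b-3p, and the chromosome 8 sum adds a strand that was higher in progenitors to strands that were not.

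Within a library, the ratio of paralogous strands needs no scaling between libraries. Of the counts on both miR-27-3p strands, miR-27b-3p held 93.8%, 93.5% and 94.4% in the progenitor libraries and 95.5%, 95.7% and 96.1% in whole kidney. For miR-23-3p the share of miR-23b-3p was 67.3%, 62.6% and 66.7% in progenitors and 72.2%, 70.2% and 69.4% in whole kidney. In both families the b strand was the larger part in every library, and its share was smaller in every progenitor library than in any whole kidney library. On the log2 scale the ratio was lower in progenitors by a difference of -0.57 for miR-27-3p and -0.34 for miR-23-3p, each with an exact permutation p of 0.1, the smallest possible, among 8 ratios tested.

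The mature sequences of the miR-27 hairpins are given 5′ to 3′ with the seed, bases 2 to 8, in capitals, because the strands that fell and the strand that rose come from the same family.
miR-27a-3p: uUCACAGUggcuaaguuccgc
miR-27b-3p: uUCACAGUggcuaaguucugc
miR-27a-5p: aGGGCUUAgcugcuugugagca
miR-27b-5p: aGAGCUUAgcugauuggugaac
The 3p strands share their seed and differ by 1 substitution, C19U, written with the miR-27a base first and counted from 1 at its 5′ end. How the counting divided reads between such near-identical strands was not tested. Compared base by base, the 5p strands differ by 8 substitutions, the first of them, G3A, in the seed. Together the miR-27-3p strands came to 8255 ± 2873 CPM against 18137 ± 2175 CPM (SD, n = 3 libraries per group), so that the pool with this seed stood in progenitors at 45.5% of its whole kidney level.

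The other strands are shown for the same comparison, with seeds in capitals.
miR-23a-3p: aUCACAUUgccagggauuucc
miR-24-3p: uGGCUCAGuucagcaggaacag
miR-24-1-5p: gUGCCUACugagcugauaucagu
miR-24-2-5p: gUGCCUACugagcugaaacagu
miR-23b-5p: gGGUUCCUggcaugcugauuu
The miR-24 5p strands share a seed and their first 16 bases. RefSeq (GRCm38.p6) gave a sequence for 9 of the 10 members and for 440 of the 535 miRNAs of the table. The 9 members carry 7 distinct seeds, and 0 of the matched miRNAs outside the members share one of them. Summed by family name only, since the seed of miR-23b-3p was not compared here, miR-23a-3p and miR-23b-3p came to 321 ± 121 CPM against 804 ± 215 CPM (SD, n = 3 libraries per group), or 39.9% of the whole kidney level.

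Comparing the arms of 1 hairpin within each library gave the clearest contrast among the members. Of the counts on both arms of mir-27a, miR-27a-5p held 62.2%, 61.1% and 72.0% in the progenitor libraries and 32.7%, 30.8% and 16.2% in whole kidney. The 5p arm was thus the larger part in every progenitor library and the smaller part in every whole kidney library. The log2 ratio of 5p to 3p was 0.72, 0.65 and 1.36 in progenitors and -1.04, -1.16 and -2.36 in whole kidney, a difference of 2.43, or 5.38-fold (exact permutation p = 0.1).

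**Figure D2:**
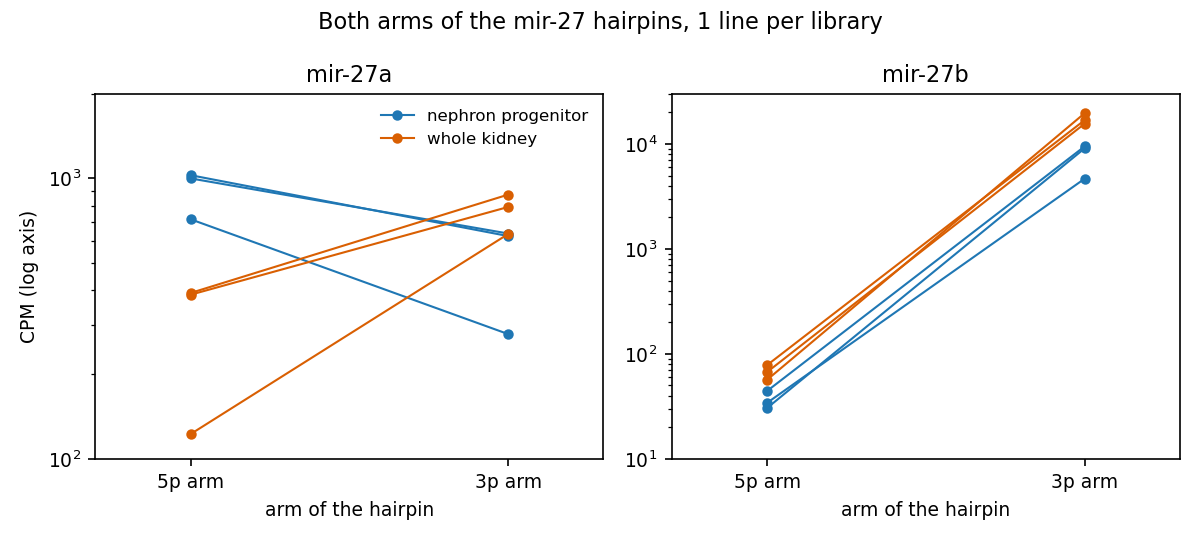
CPM on log axes of the 5p and 3p arms of mir-27a (left) and mir-27b (right), with 1 line per library (3 nephron progenitor libraries in blue, 3 whole kidney libraries in orange) and a separate scale in each panel. The mir-27a lines slope down from 5p to 3p in nephron progenitors (5p share 61.1% to 72.0%) and up in whole kidney (16.2% to 32.7%), while all mir-27b lines slope up.

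In the paralogous hairpin 1 arm was the main product in both groups. Of the counts on both arms of mir-27b, the 5p arm held 0.465%, 0.335% and 0.727% in the progenitor libraries and 0.461%, 0.288% and 0.428% in whole kidney. That main product was the 3p arm in every library, and the log2 ratios overlapped (difference 0.35, exact permutation p = 0.4). For mir-23b the 5p share was 11.0%, 4.20% and 8.0% in progenitors and 1.08%, 0.858% and 3.33% in whole kidney, on at most 13 counts of the 5p arm. These ratios did not overlap (exact permutation p = 0.1). The 5p arm had 2 counts in MWK1 and in MWK2, below the floor of 3 counts, so the log2 difference of 2.25 is not exact. For the miR-24 hairpins the 3p strand is shared, so the ratio of miR-24-2-5p to miR-24-3p, which was higher in progenitors by 0.65 on the log2 scale (exact permutation p = 0.1), is not a ratio of arms of 1 hairpin.

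Across the table, 137 pairs of a 5p and a 3p strand with the same name stem had both strands tested. The ratio of 5p to 3p did not overlap between the groups in 37 of them, or 27%. Not all pairs are separate measurements, since miR-299a and miR-299b, for example, gave the same difference of 1.54. A limma fit across these 137 ratios, chosen after the data had been seen, called 13.1% at an adjusted p of 0.05 or less. In it mir-27a had a log2 difference of 2.43 (SE 0.29, limma adjusted p = 7.7e-05) and mir-27b one of 0.35 (SE 0.38, limma adjusted p = 0.68), which ranged from 0.05 without MNP6 to 0.61 without MNP2 and passed in none of the 6 fits that leave out 1 library. For mir-27a the call held without each library in turn, with limma differences from 2.01 to 2.67 and adjusted p of at most 0.0019. For mir-23b, with 5p counts below the floor in MWK1 and MWK2, the limma adjusted p was 0.048. The call was lost in 4 of the 6 fits that leave out 1 library, those without MNP1, MNP6, MWK1 or MWK2. There the differences ran from 1.89 to 2.15, with limma adjusted p up to 0.165. Among the 29 pairs with at least 50 counts on average for each arm, the mir-27a difference was the largest, where the median absolute difference was 0.30. Over all 137 pairs it ranked 2 by size, after miR-223 at 2.54 (limma adjusted p = 0.048). The scarcer arm of miR-223 had 3.17 counts on average. This ranking was also made after the data had been seen.

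Markers of some other cell types, though not of all those listed, also differed between the groups. The 5 epithelial miRNAs, led by miR-200a-3p, summed to 214, 366 and 86.7 CPM in the progenitor libraries and to 23365, 24832 and 21253 CPM in whole kidney, and all 5 were lower, with miR-141-3p at 0 in every progenitor library. The 2 endothelial strands, led by miR-126a-3p, summed to 419, 595 and 578 CPM and to 20132, 21311 and 18150 CPM, and both were lower. Epithelial and endothelial markers in progenitors were thus at 0.960% and 2.67% of their whole kidney level, beside 44.4% for the chromosome 13 strands. The 2 miRNAs of smooth muscle and pericytes, led by miR-143-3p, summed to 21368, 28229 and 25724 CPM and to 60668, 71504 and 57415 CPM, and both listed strands were lower, at 39.7% in sum. The 2 erythroid miRNAs, led by miR-451a, summed to 224, 146 and 76.2 CPM and to 1074, 1061 and 552 CPM, and both were lower, at 16.6% in sum. In each of these 4 lists the groups did not overlap in sum, and except for miR-141-3p no listed miRNA was at 0 in all progenitor libraries.

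In the other lists no listed strand passed the threshold in edgeR. The stromal and leukocyte sums in progenitors were at 124% and 126% of their whole kidney level, and the groups overlapped in both. The 3 stromal strands, led by miR-199a-3p, summed to 12414, 17049 and 20332 CPM in the progenitor libraries and to 13006, 13823 and 13471 CPM in whole kidney, with 0 of 3 past the threshold in edgeR and none at 0. The 4 leukocyte strands, led by miR-142a-3p, summed to 126, 135 and 52.6 CPM and to 87.2, 101 and 61.3 CPM, with 0 of 4 past the threshold and none at 0 in all progenitor libraries. Strands outside the lists that carry the same miRNA number as a listed one were looked at after these values had been seen. Of 2 for smooth muscle and pericytes, miR-143-5p and miR-145a-3p, 0 passed the threshold (log2 fold change -0.12 and -0.30, edgeR adjusted p = 0.81 and 0.31). Of 3 for stroma, miR-199b-5p was higher in progenitors (log2 fold change 0.79, edgeR adjusted p = 0.0018) and miR-214-5p did not pass, while miR-199b-3p had the same count as the listed miR-199a-3p in every library and is no further strand. The 1 for leukocytes, miR-223-5p, was also higher (edgeR adjusted p = 0.0050), on 4, 8 and 7 counts in progenitors against 0 in each whole kidney library. The 2 epithelial ones and the 1 erythroid one were lower, like their lists, with miR-200b-5p at 0 in every progenitor library. The absence of calls for stroma and leukocytes therefore holds for the listed strands only.

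MNP6, the lowest progenitor library for the 3p strands of the members, was also the lowest for the epithelial, erythroid and leukocyte sums and the highest for the stromal sum. The part of these cell types, and of what sets MNP6 apart, in the results on the members was not tested. Without MNP6 the same number of members, 6, was past the threshold in edgeR. Then miR-27a-5p had a log2 fold change of 1.73 (edgeR adjusted p = 0.0040), and the log2 fold changes of miR-23b-3p, miR-23a-3p and miR-24-3p were -1.19, -0.81 and -0.51 (edgeR adjusted p = 0.0034, 0.028 and 0.015).

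For miR-27b-3p, miR-23b-3p and miR-24-3p alone, and not for the miR-27a strands, the closest profiles were taken from the 278 other miRNAs of at least 50 CPM on average, by the root mean square difference over the 6 libraries of log2 CPM centred on its mean. Nearest to miR-27b-3p were miR-96-5p at 0.161, miR-21a-5p at 0.193 and miR-32-5p at 0.206, where the median over all candidates was 0.728. Nearest to miR-23b-3p were miR-3473e at 0.234, miR-32-5p at 0.238 and miR-30c-5p at 0.275, against a median of 0.855. Nearest to miR-24-3p were miR-16-5p at 0.110, miR-10a-3p at 0.114 and miR-342-3p at 0.125, against a median of 0.491. The distances describe these 6 libraries, and much of each profile is the difference between the groups.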

How the data were processed

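The authors trimmed adapters, aligned reads to mm10 (the submitters' processing notes list Bowtie2 2.2.3, BWA and DESeq2 1.18.1), used miRDeep2 for known miRNAs and deposited its estimated counts, which are not normalized. These expected counts were rounded, which altered 3 of the 792 rows, and tested as the design for counts set out. The highest count over the rows of a mature miRNA was kept in each library. Those summing to over 10 counts across libraries entered edgeR 4.0.16 (R 4.3.3) with TMM scaling, the quasi-likelihood test and Benjamini-Hochberg adjustment. Standard errors were the absolute log2 fold change over the root of the F statistic. Ratios used counts plus 0.5 and exact two-sided permutation tests. For likeness, the prior count of log2 CPM was 2. Alternatives used DESeq2 1.42.0, limma 3.58.1 (limma-voom), library totals, DESeq2 size factors, other filters, sums over rows, no 10 most abundant miRNAs, a replicate block and each library left out. Steps were tested on simulated data. Replicates of a group differed by more than counting noise, and more so among progenitors. Chi-square units per degree of freedom were 2.90 to 8.8 between whole kidney libraries and 20.6 to 55.0 between progenitor libraries. The edgeR fit did not let the spread differ by group. Named miRNAs were the members, miRNAs within 10 kb or sharing a seed, marker lists and the 3 nearest profiles. Members and lists were chosen with earlier results of these data known. Figures used matplotlib 3.10.9.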

Additional observations from a re-analysis of the deposited data

How the results depend on the processing

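Over 16 alternatives, miR-27b-3p (log2 fold change -1.33 to -0.94), miR-23b-3p (-1.60 to -1.19) and miR-27a-5p (1.24 to 1.84) were past the threshold in each, with the highest adjusted p at 0.0141, 0.0175 and 0.0140. miR-23a-3p was past it in 14, miR-24-3p in 13 and miR-27b-5p in 10 of the 16. Between 3 and 7 members passed when 1 library was left out, and between 144 and 211 of all miRNAs. With more than 10 counts required in every library, 120 of 260 miRNAs passed, against 192 of 525, as fewer were tested. miR-24-2-5p, past the threshold in none, was at 0.14 with library totals, which is -0.06 relative to the shift of 0.20 of all miRNAs and so as with TMM, and at -0.29 to 0.10 in the fits without 1 library, above 0 without MWK1 or MWK2, where the cause was not tested. Added after the data had been seen, limma across all arm pairs took the arm differences of mir-27a (2.43) and mir-23b (2.25) past the threshold, which the exact test on 6 libraries cannot reach. The mir-23b difference is not exact, since its 5p counts in MWK1 and MWK2 lie below the floor.

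The groups share 3 litters by the methods, but the numbers 1 and 2 are not stated to mark one, and the differences between them correlated at 0.039 across miRNAs between the groups. With a replicate block on the 4 numbered libraries 153 miRNAs and 6 members passed, against 134 and 5 without it. Members with few counts, such as miR-23b-5p and miR-24-1-5p, are limited by depth. A strand's level per cell, its cell of origin and its locus for miR-24-3p are not given by these counts.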
